A study of Mus musculus with 6 samples.

Results

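Lymphocyte transcripts were examined in whole kidney from mice. The set held 46 genes of T cells, natural killer (NK) cells and B cells, taken by symbol from the 22183 genes of the expression table and divided by role into 10 groups. All 46 were found. The rule rests on gene names and functions and uses no measured value. The list was nevertheless chosen with earlier results of these data known. In the 3 Wnt1 libraries the mice had received the Wnt1 plasmid, labelled p-Wnt-1 in the series' design text, and their genotype is labelled as Wnt1 overexpression. In the 3 control libraries the mice had received the empty vector pcDNA3, and their genotype is labelled control. The labels name no strain, age, sex, injury procedure or time after plasmid delivery for either group, and do not say which promoter drove the plasmid or which kidney cells took it up. The series title is about how acute kidney injury turns into a chronic disease, and the comparison addresses how kidney RNA with the Wnt1 plasmid differs from that with pcDNA3. The labels do not tie libraries to different mice. The p-values therefore cover only variation among these 6 libraries, part or all of which may be technical.

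T cells read antigen through a receptor whose signal is passed on by the CD3 and zeta chains, with CD4 or CD8 as co-receptor, and co-stimulatory and inhibitory (checkpoint) receptors adjust that signal. Cytotoxic T cells and NK cells kill through granules of perforin and granzymes. B cells signal through membrane immunoglobulin with CD79a and CD79b, and plasma cells secrete antibody. A healthy kidney holds few lymphocytes, and they are known to gather in the interstitium after tubular injury. In whole-tissue RNA, more cells of a type and more RNA per cell cannot be told apart, and this holds for every result here.

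Expected counts summed to between 23585040 and 27218091 per Wnt1 library and between 24753191 and 26072455 per control library. Wnt1 itself had 0, 1 and 0 reads in Wnt1 replicates 1, 2 and 3 and 0 in each control library, so the plasmid's gene did not check the labels. Wnt1 replicate 3 and control replicate 3 stood apart from the other 4 libraries on the second principal component (14.7% of the variance), and results that change without them are given below. The 12 proximal tubule markers, which define kidney tissue, summed to 7333 to 10700 CPM (counts scaled to a common library size) in Wnt1 libraries and 38160 to 46560 CPM in control libraries, and 11 of the 12 fell. Transcripts carried by most white blood cells were 580.6 to 696.4 CPM in Wnt1 libraries and 208 to 234.3 CPM in control libraries when summed over 16 genes. Of those 16, 14 rose and 0 fell by edgeR's quasi-likelihood test (0 fell at an unadjusted p under 0.05 and 0 by DESeq2). Of 12 neutrophil markers 5 were tested, and 4 rose, while 2 of 9 mast cell and basophil markers were tested, at log2 fold changes of -0.18 and 0.54. Endothelial markers fell in 6 of 10.

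Most lymphocyte genes that could be tested were higher with the Wnt1 plasmid. Of the 46 genes, 39 passed the filter on low counts, and 32 of these 39 rose and 0 fell (edgeR, Benjamini-Hochberg adjusted p under 0.05 over 14432 tested genes). Among all tested genes 22.4% were called higher and 18.7% lower (41.1% in either direction). Also at an unadjusted p under 0.05, and by DESeq2, 0 members were lower. The median log2 fold change, Wnt1 over control, was 1.61 over the 39 members and 0.05 over all tested genes. For 34 of the 39 members every Wnt1 library lay above every control library, as it did for 28.2% of all tested genes. A gene that passed the filter through its Wnt1 libraries alone had to be higher there, so these counts describe the 39 genes and not all 46. Among such genes were Foxp3, Pdcd1, Klrd1, Klrb1c, Ncr1 and Gzmk, each with under 10 reads in every control library. The same limit holds for every further gene list below, whose counts describe only its tested genes. Library totals in place of TMM factors raised the median of all tested genes to 0.47 and that of the members to 2.03, and 35 members were then called higher and 0 lower. Per length of transcript, Ighm was the most abundant member in both groups, at a mean of 25.2 FPKM in Wnt1 libraries and 4.18 FPKM in control libraries. Of the 46 members, 3 had under 10 reads in every library.

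**Figure D1:**
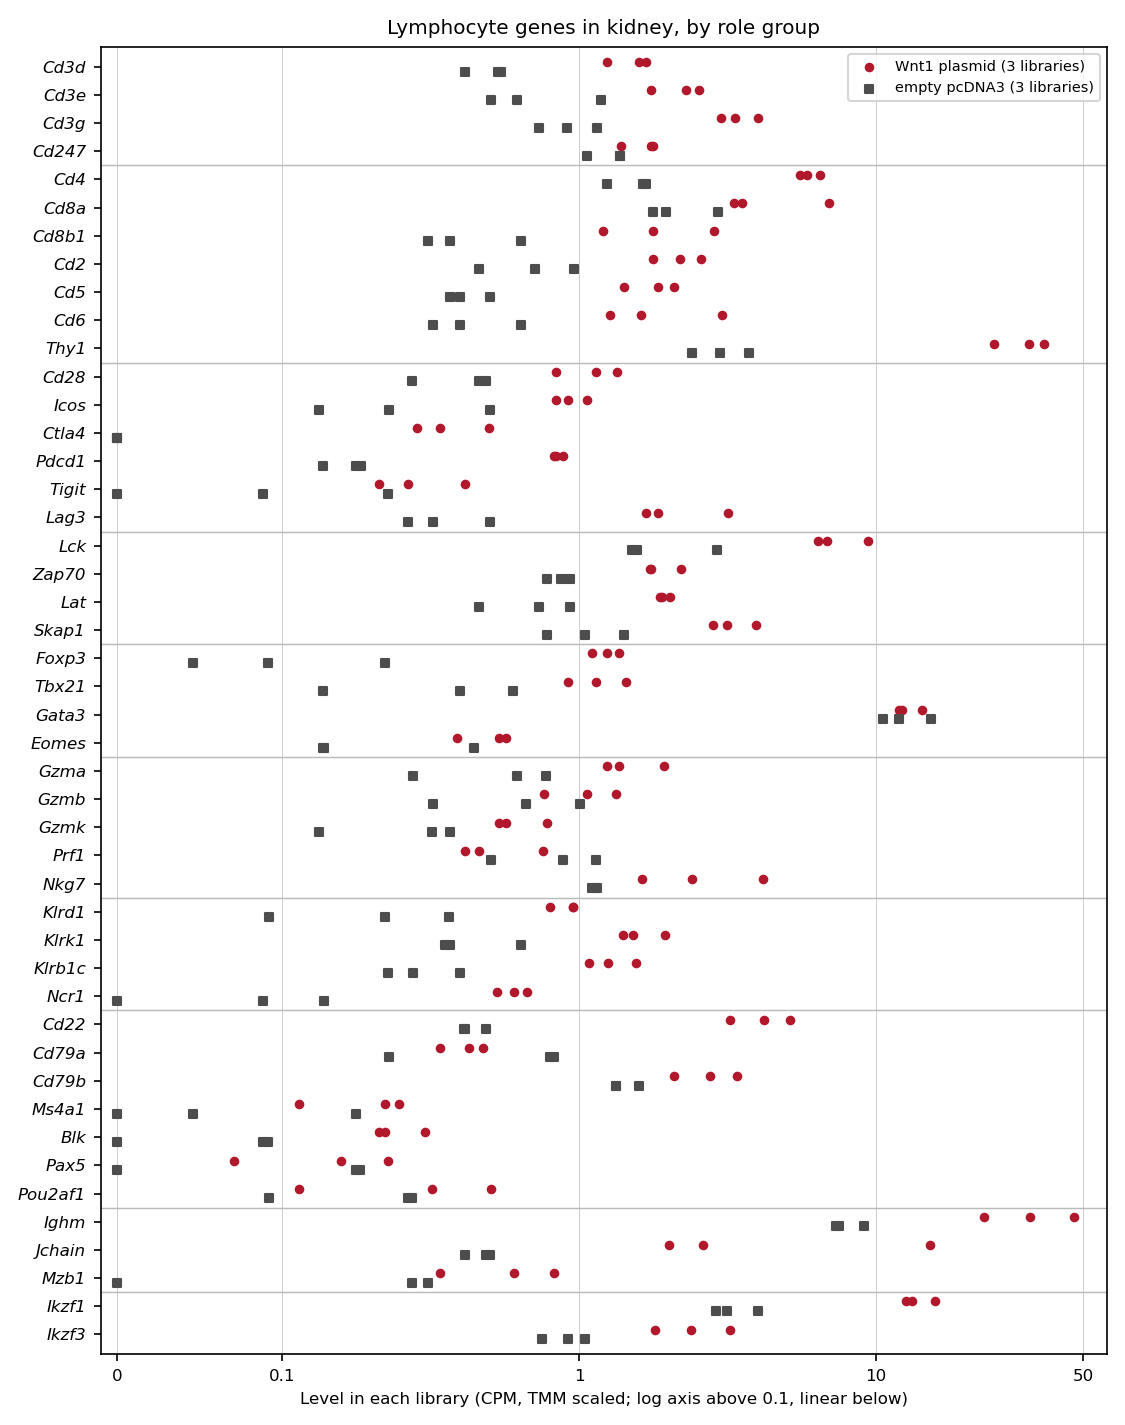
Level of each of the 46 lymphocyte genes in each library (horizontal axis, CPM with TMM scaling, logarithmic above 0.1 and linear below), ordered by role, with Wnt1 libraries as red circles above control libraries as grey squares. Most genes show separate groups, while Gata3, Prf1, Cd79a, Gzmb and Eomes overlap, as do several genes below 0.5 CPM.

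Of the 4 chains that carry the signal of the T cell receptor, the 3 CD3 chains rose with the Wnt1 plasmid and the zeta chain was not called. Cd3g, the gamma chain, stood at 3.36, 3.01 and 4.02 CPM in Wnt1 replicates 1, 2 and 3 and at 0.736, 1.15 and 0.913 CPM in control replicates 1, 2 and 3. The groups did not overlap, and the log2 fold change was 1.88 ± 0.27 (standard error; adjusted p = 0.0011 by edgeR). Cd3d, the delta chain, had 1.68, 1.24 and 1.59 CPM in Wnt1 libraries and 0.414, 0.532 and 0.548 CPM in control libraries. It rose by 1.59 ± 0.30 (edgeR adjusted p = 0.00403), again without overlap. Cd3e, the epsilon chain, had 1.74, 2.3 and 2.54 CPM in Wnt1 libraries and 0.506, 0.62 and 1.19 CPM in control libraries. It rose by 1.50 ± 0.37 on the log2 scale (edgeR adjusted p = 0.013). Without control replicate 2 the adjusted p of Cd3e was 0.0548 at a log2 fold change of 1.42 (range over the 16 alternatives 0.00165 to 0.0548).

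Cd247, the zeta chain of the same receptor, gave 1.78, 1.38 and 1.75 CPM in Wnt1 libraries and 1.38, 1.06 and 1.37 CPM in control libraries. The log2 fold change was 0.36 ± 0.26 and was not called (edgeR adjusted p = 0.308). The groups only just failed to overlap, at 1.381 CPM in the lowest Wnt1 library and 1.379 CPM in the highest control library. Cd247 was called in 4 of 16 alternatives, with library totals (edgeR adjusted p = 0.0338) and the 3 FPKM fits (limma adjusted p = 0.0206 to 0.0296). Annotated exons of Cd247 and of Pou2f1, a widely expressed transcription factor on the opposite strand, overlap over 56.4% of the exonic bases of Cd247. Pou2f1 was itself at 14.3 to 29.4 CPM in Wnt1 libraries and 11.7 to 18.2 CPM in control libraries, and the labels do not state whether counting used strand. Of the 6 Cd247 counts, 5 were not whole numbers, as happens when shared reads are divided between genes, so the level of Cd247 is uncertain.

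The CD3 genes lie together on mouse chromosome 9 (GRCm38), Cd3g from 44969572 to 44980431 on the minus strand, Cd3d from 44981786 to 44987339 on the plus strand and Cd3e from 44998740 to 45009627 on the minus strand. Cd3g and Cd3d run in opposite directions from starts 1354 bases apart. The 250 bases before the RefSeq start of each are printed because both of these neighbours rose (GRCm38.p6; chr9:44981536-44981785, plus strand, for Cd3d and chr9:44980432-44980681, minus strand, for Cd3g). Capitals mark a match to AGGAAGT (a form of the ETS motif), TGTGGTT (RUNX), ATGCAAAT (the octamer) or TTCAAAG (TCF/LEF), on either strand.
Cd3d: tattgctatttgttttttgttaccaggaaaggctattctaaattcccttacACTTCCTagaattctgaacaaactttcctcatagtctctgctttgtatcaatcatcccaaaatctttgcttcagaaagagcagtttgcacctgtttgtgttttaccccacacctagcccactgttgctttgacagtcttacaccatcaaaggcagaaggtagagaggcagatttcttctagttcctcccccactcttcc
Cd3g: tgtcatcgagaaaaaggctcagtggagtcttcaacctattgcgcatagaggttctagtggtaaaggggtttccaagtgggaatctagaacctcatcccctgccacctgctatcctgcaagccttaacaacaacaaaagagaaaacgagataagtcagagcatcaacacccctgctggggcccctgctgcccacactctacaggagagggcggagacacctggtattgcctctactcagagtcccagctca
The reverse complement of AGGAAGT begins 199 bases before the Cd3d start, and the Cd3g window holds none of the 4 motifs. RefSeq promoters were found for 30 of the 46 members. AGGAAGT occurred in 8 of these 30 (Cd247, Cd3d, Cd3e, Cd5, Cd79a, Lck, Prf1 and Tbx21) and in 7.69% of 32851 promoter windows of the same length. TGTGGTT occurred in 6 (Gzma, Gzmb, Klrk1, Lck, Ncr1 and Tigit), against 4.4% of all windows. TTCAAAG occurred in 1 (Gzmk), against 4.46%, and ATGCAAAT in 0, against 1.6%. There were 0 overlaps between different motifs in the member windows. Members were counted by gene, with a match in any window of the gene, and the background by window, so the 2 shares are not strictly alike. The motifs were chosen with earlier results known, and a match is a description of the letters only.

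All 7 genes for co-receptors and adhesion molecules of T cells rose. Cd4, the co-receptor of helper and regulatory T cells, had 5.87, 5.56 and 6.49 CPM in Wnt1 libraries and 1.24, 1.68 and 1.64 CPM in control libraries. The groups were well apart, and Cd4 rose by 1.97 ± 0.22 (edgeR adjusted p = 0.000338). Cd8b1, the beta chain of the CD8 co-receptor of cytotoxic T cells, had 1.2, 1.77 and 2.84 CPM in Wnt1 libraries and 0.368, 0.31 and 0.639 CPM in control libraries. The groups did not overlap, and the log2 fold change was 2.13 ± 0.45 (edgeR adjusted p = 0.00647). Cd8a, the alpha chain, which some dendritic cells also carry, had 3.55, 3.33 and 6.94 CPM in Wnt1 libraries and 2.94, 1.77 and 1.96 CPM in control libraries. Its rise of 1.05 ± 0.36 had the highest adjusted p of the 7 (edgeR, 0.0478; 0.0112 to 0.125 over the alternatives). The adjusted p was 0.0557 without Wnt1 replicate 1, 0.0839 without Wnt1 replicate 3, 0.108 without control replicate 2 and 0.0991 without control replicate 3, with log2 fold changes of 1.20, 0.63, 0.95 and 1.03. Without both libraries numbered 3 it was 0.54 (adjusted p = 0.125). Dendritic cell markers moved with it (12 of 13 called higher, summed levels of 98.7 to 131.9 CPM in Wnt1 libraries and 36.8 to 48.4 CPM in control libraries, 0 of the 13 at 0), and their part in the result was not tested.

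Among the adhesion and costimulatory surface proteins of T cells, Cd2 had a log2 fold change of 1.61 ± 0.34, Cd5 2.06 ± 0.32 and Cd6 2.11 ± 0.45. Adjusted p-values by edgeR were 0.00625 for Cd2, 0.00145 for Cd5 and 0.007 for Cd6. Cd5 and Cd6, both scavenger receptor proteins that dampen T cell receptor signals, are neighbours on chromosome 19, with 50.3 kb between them. Thy1, a surface glycoprotein of mouse T cells that some fibroblasts and neurons also carry, averaged 21.7 FPKM in Wnt1 libraries and 1.62 FPKM in control libraries, while Cd3g averaged 3.9 FPKM in Wnt1 libraries and 0.855 FPKM in control libraries. It had 25, 32.7 and 36.9 CPM in Wnt1 libraries and 2.99, 2.39 and 3.74 CPM in control libraries, and rose by 3.37 ± 0.23 (edgeR adjusted p = 5.82e-05). For each 100 reads of Cd3d, Cd3e and Cd3g together there were 440.1 ± 66.2 Thy1 reads in Wnt1 libraries and 141.9 ± 38.4 in control libraries (SD, n = 3 each). Fibroblast and mural cell markers moved with Thy1 (11 of 13 called higher, summed levels of 2256 to 3615 CPM in Wnt1 libraries and 623.7 to 784.6 CPM in control libraries, 0 of the 13 at 0), and their part in its rise was not tested.

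Of the 6 checkpoint and co-stimulatory receptors 4 were tested, and all 4 rose. Pdcd1, with 4, 4 and 3 control reads, passed the filter through its Wnt1 libraries alone and so had to be higher there. Control reads were also few for Lag3 (7, 6 and 11) and Icos (5, 3 and 11). Pdcd1, which encodes the inhibitory receptor PD-1, had 0.824, 0.885 and 0.835 CPM in Wnt1 libraries and 0.184, 0.177 and 0.137 CPM in control libraries. Every Wnt1 library was above every control library, and the log2 fold change was 2.32 ± 0.36 (edgeR adjusted p = 0.00154). Lag3, an inhibitory receptor that binds MHC class II, had 1.68, 1.84 and 3.19 CPM in Wnt1 libraries and 0.322, 0.266 and 0.502 CPM in control libraries. It rose by 2.60 ± 0.41 on the log2 scale (edgeR adjusted p = 0.00163). Ctla4, an inhibitory receptor that competes with CD28 for its ligands, had 9, 14 and 9 reads in Wnt1 libraries and 0 reads in each control library. It missed the filter on low counts, and against a floor of 3 counts per control library its mean level was at least 2.75-fold higher in Wnt1 libraries. Without the filter Ctla4 was called by edgeR (adjusted p = 0.00713), and DESeq2 called it too (adjusted p = 0.00253). Tigit, another inhibitory receptor, had 13, 6 and 7 reads in Wnt1 libraries and 0, 2 and 5 reads in control libraries and was not tested in the fit used for the counts above. It was not called by edgeR without the filter (adjusted p = 0.217) and was called by limma on log2(FPKM + 1) (adjusted p = 0.0332).

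The costimulatory receptors Cd28 and Icos lie beside Ctla4 on chromosome 1 (113.6 kb from Cd28 to Ctla4 and 62.1 kb from Ctla4 to Icos). Cd28 had 1.14, 1.34 and 0.835 CPM in Wnt1 libraries and 0.46, 0.487 and 0.274 CPM in control libraries, and rose by 1.43 ± 0.37 (edgeR adjusted p = 0.015). Icos had 0.919, 1.06 and 0.835 CPM in Wnt1 libraries and 0.23, 0.133 and 0.502 CPM in control libraries, and rose by 1.69 ± 0.46 (edgeR adjusted p = 0.0198). Neither call held in every leave-one-out fit. Cd28 had adjusted p-values of 0.0503, 0.0602 and 0.0543 without Wnt1 replicate 1, Wnt1 replicate 2 and control replicate 3 (range over the alternatives 0.00493 to 0.0602), at log2 fold changes of 1.41, 1.27 and 1.32. Icos had 0.0556, 0.0667, 0.0787 and 0.0725 without Wnt1 replicate 1, Wnt1 replicate 2, control replicate 1 and control replicate 2 (range 0.00345 to 0.0787), at 1.71, 1.59, 1.61 and 1.41, and without control replicate 3 its log2 fold change was 2.44. Of 15 gene symbols fixed as checkpoint and costimulatory ligands, 14 were found and 10 were tested. Of these 10, 7 rose and 0 fell (0 at an unadjusted p under 0.05 and 0 by DESeq2). They included Cd86 (2.26 ± 0.21), the ligand shared by CD28 and CTLA-4, Lgals3 (2.11 ± 0.16), which encodes galectin-3, and Cd48 (2.56 ± 0.24), a ligand of CD2 in mice. Cd274, which encodes the PD-1 ligand PD-L1, was not called at -0.30 ± 0.19 (edgeR adjusted p = 0.247).

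All 4 proximal signalling genes of the T cell receptor rose. Lck, the kinase that phosphorylates the CD3 chains, had 6.4, 6.83 and 9.41 CPM in Wnt1 libraries and 1.56, 1.51 and 2.92 CPM in control libraries. The log2 fold change was 1.92 ± 0.31 (edgeR adjusted p = 0.002). Zap70, the kinase recruited to phosphorylated zeta chains, rose by 1.13 ± 0.26, the adaptor Lat by 1.44 ± 0.31 and the adaptor Skap1 by 1.60 ± 0.30, with edgeR adjusted p-values of 0.0103, 0.00753 and 0.00347. All 4 genes held their call in each of the 16 alternatives, and their groups did not overlap. Of 30 further T cell genes, 26 were tested, and 18 rose and 1 fell. They included Tcf7 (2.74 ± 0.27), a T cell transcription factor of the TCF/LEF family, and Fyb (2.86 ± 0.29), an adaptor that myeloid cells also express. The gene that fell was the protein kinase C gene Prkcq, at -1.03 ± 0.17 (edgeR adjusted p = 0.00194). Prkcq had 205, 216 and 202 reads in Wnt1 libraries and 278, 366 and 341 in control libraries. Reads of the 3 CD3 genes together were 214, 185 and 215 in Wnt1 libraries and 36, 52 and 58 in control libraries. Whether the Prkcq reads came from T cells was not tested.

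**Figure D2:**
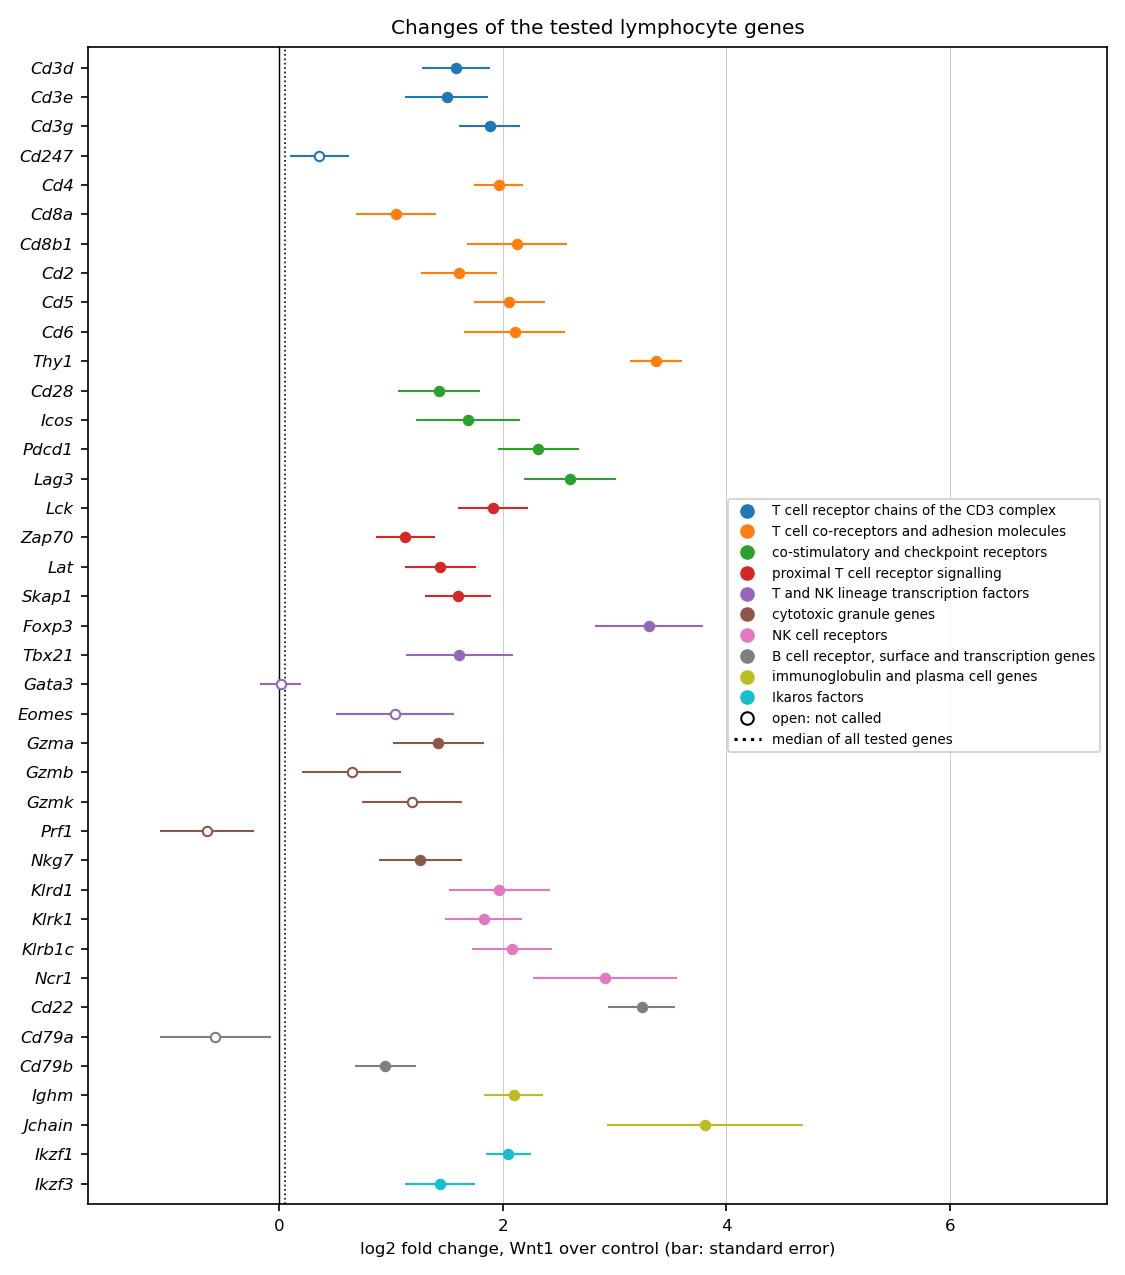
Log2 fold change, Wnt1 over control, of the 39 tested members, with standard errors as bars, colours for role groups, filled symbols for genes called higher and a dotted line at the median of all tested genes (0.05). Called genes lie between 0.95 and 3.81, and the 7 open symbols between -0.64 and 1.19.

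Of the 4 lineage transcription factors Foxp3 and Tbx21 rose. Foxp3, the defining factor of regulatory T cells, had 1.11, 1.24 and 1.37 CPM in Wnt1 libraries and 0.046, 0.222 and 0.0913 CPM in control libraries, that is 35, 35 and 36 reads in Wnt1 libraries and 1, 5 and 2 reads in control libraries. The groups did not overlap. The log2 fold change was 3.31 ± 0.48 (edgeR adjusted p = 0.00108), and 4.13 without control replicate 2, the control library with the most reads (adjusted p 5.8e-05 to 0.0252 over the alternatives). Per 100 CD3 reads there were 17.3 ± 1.38 Foxp3 reads in Wnt1 libraries and 5.28 ± 3.77 in control libraries (SD, n = 3 each), and the groups did not overlap. This ratio and the other read ratios given here were chosen after the values were seen and are not tested, but no scaling of libraries enters them. The rise was smaller in the authors' FPKM values, which were 0.448, 0.489 and 0.404 FPKM in Wnt1 libraries and 0.061, 0.224 and 0.052 FPKM in control libraries. On the log2(FPKM + 0.1) scale it was 1.45 for Foxp3 and 1.52 for Tbx21, so the order of these genes depends on the unit. Exons of Ccdc22, on the opposite strand, cover 12.9% of the exonic bases of Foxp3. Ccdc22 was at 23.1 to 29.6 CPM in Wnt1 libraries and 31.9 to 33.3 CPM in control libraries. It was not called at -0.31 ± 0.14 (edgeR adjusted p = 0.109), and its part in the Foxp3 counts was not tested. Exons of Flicr, on the same strand, overlap 18.6% of them, and 4 of the 6 Foxp3 counts were not whole, so its exact level is uncertain.

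Tbx21, encoding T-bet, the factor of type 1 helper T cells and NK cells, had 1.14, 0.92 and 1.44 CPM in Wnt1 libraries and 0.598, 0.399 and 0.137 CPM in control libraries. It rose by 1.61 ± 0.47 (edgeR adjusted p = 0.0263), with adjusted p-values of 0.0681 without Wnt1 replicate 1 and 0.0703 without control replicate 2 (range 0.0052 to 0.0703) at log2 fold changes of 1.63 and 1.72. Without both libraries numbered 3 it was 1.04 (adjusted p = 0.0523). Eomes, a related factor of NK and memory T cells, overlapped between groups and was not called at 1.04 ± 0.53 (edgeR adjusted p = 0.151). Without control replicate 2 it was called at 1.88 (adjusted p = 0.0389; range 0.0389 to 0.368).

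Gata3, the factor of type 2 helper T cells, had 12.2, 12 and 14.3 CPM in Wnt1 libraries and 12, 15.4 and 10.6 CPM in control libraries, a difference of 0.02 ± 0.18 on the log2 scale that was not called (edgeR adjusted p = 0.948). It was the second most abundant member per length in control libraries, at 3.45 FPKM. Gata3 is also a transcription factor of the collecting duct, whose markers were measured beside it. Of 14 markers of the collecting duct and distal tubule, 0 were called higher and 3 lower, their summed level was 1371 to 1949 CPM in Wnt1 libraries and 2139 to 2342 CPM in control libraries, and 0 of the 14 were at 0. Their part in the level of Gata3 was not tested. Of 30 genes fixed for helper and regulatory subsets, 17 were tested, and 11 rose and 0 fell (0 at an unadjusted p under 0.05 and 0 by DESeq2). They included Il1rl1 (4.83 ± 0.42), the receptor of interleukin-33, Tnfrsf9 (3.50 ± 0.39), the costimulatory receptor 4-1BB, and the factor Batf (2.38 ± 0.36).

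Of the 5 cytotoxic granule genes 2 rose and 0 fell (0 at an unadjusted p under 0.05 and 0 by DESeq2). Gzma, a granzyme of NK cells and cytotoxic T cells, had 1.36, 1.24 and 1.94 CPM in Wnt1 libraries and 0.276, 0.62 and 0.776 CPM in control libraries. It rose by 1.43 ± 0.41 (edgeR adjusted p = 0.0237), but not without Wnt1 replicate 1, control replicate 1 or control replicate 2 (adjusted p = 0.0538, 0.0505 and 0.0617; range 0.00234 to 0.0617; log2 fold changes 1.50, 1.16 and 1.55). Nkg7, a granule membrane protein, had 2.41, 1.63 and 4.17 CPM in Wnt1 libraries and 1.15, 1.11 and 1.14 CPM in control libraries. It rose by 1.27 ± 0.37 (edgeR adjusted p = 0.0274), with adjusted p-values of 0.053, 0.0592, 0.0657 and 0.0553 without Wnt1 replicate 1 and control replicates 1, 2 and 3 (range 0.00569 to 0.0657; log2 fold changes 1.35, 1.31, 1.29 and 1.34). Without both libraries numbered 3 Nkg7 was 0.84 (adjusted p = 0.051).

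The remaining granule genes were not called by edgeR with TMM factors. Gzmk, granzyme K, had 0.539, 0.779 and 0.569 CPM in Wnt1 libraries and 0.368, 0.133 and 0.32 CPM in control libraries, and the difference was 1.19 ± 0.45 on the log2 scale (edgeR adjusted p = 0.0626). Its groups did not overlap, and it was called in 5 of 15 alternatives, with upper-quartile factors (adjusted p = 0.0485), library totals (0.0184) and the 3 FPKM fits (limma, 0.00852 to 0.0389). Gzmb, granzyme B, had 0.761, 1.06 and 1.33 CPM in Wnt1 libraries and 0.322, 0.665 and 1 CPM in control libraries, a difference of 0.65 ± 0.44 on that scale (edgeR adjusted p = 0.272), called only on log2(FPKM + 1) among its 15 alternatives (limma adjusted p = 0.0419). Prf1, the pore-forming protein perforin, had 0.412, 0.46 and 0.759 CPM in Wnt1 libraries and 0.506, 0.886 and 1.14 CPM in control libraries. Its groups overlapped, and the difference of -0.64 ± 0.42 was not called (edgeR adjusted p = 0.257). Relative to CD3 transcripts the groups were apart for Prf1 and Gzmb and overlapped for Gzma and Nkg7. Per 100 CD3 reads there were 6.08, 7.03 and 9.3 Prf1 reads in Wnt1 libraries and 30.6, 38.5 and 43.1 in control libraries, and 14.6 ± 2.91 Gzmb reads in Wnt1 libraries and 28.7 ± 9.24 in control libraries (SD, n = 3 each). Gzma gave 20.9 ± 2.5 reads in Wnt1 libraries and 24.3 ± 6.72 in control libraries, and Nkg7 37.2 ± 13.2 in Wnt1 libraries and 53.5 ± 14 in control libraries (SD, n = 3 each). The promoters of Gzma and Prf1, from the same functional group with one called and the other not, are printed with the motifs given above in capitals (GRCm38.p6; chr13:113100982-113101231, minus strand, and chr10:61297586-61297835, plus strand).
Gzma: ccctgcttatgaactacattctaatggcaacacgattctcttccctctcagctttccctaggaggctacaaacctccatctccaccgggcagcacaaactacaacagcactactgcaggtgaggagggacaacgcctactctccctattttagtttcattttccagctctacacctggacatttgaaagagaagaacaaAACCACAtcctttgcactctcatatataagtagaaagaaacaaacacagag
Prf1: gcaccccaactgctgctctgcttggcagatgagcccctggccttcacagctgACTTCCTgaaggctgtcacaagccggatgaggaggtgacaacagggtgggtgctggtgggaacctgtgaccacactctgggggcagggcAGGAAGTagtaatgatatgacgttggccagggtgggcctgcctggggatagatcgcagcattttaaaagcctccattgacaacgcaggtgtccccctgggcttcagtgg
The Gzma window holds the reverse complement of TGTGGTT from 51 bases before the start. The Prf1 window holds AGGAAGT from 109 bases before the start and its reverse complement from 198 bases before it.

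All 4 NK cell receptor genes were called higher, with no overlap between groups, as for 28.2% of all tested genes. Klrd1 (2, 5 and 8 control reads), Klrb1c (6, 9 and 5) and Ncr1 passed the filter through their Wnt1 libraries alone. These 3 therefore had to be higher there. Klrk1, which encodes the activating receptor NKG2D of NK cells and CD8 T cells, had 1.52, 1.95 and 1.4 CPM in Wnt1 libraries and 0.368, 0.354 and 0.639 CPM in control libraries. It rose by 1.83 ± 0.35 (edgeR adjusted p = 0.0039). Klrd1, encoding CD94, rose by 1.97 ± 0.46 (edgeR adjusted p = 0.0094), and its log2 fold change was 2.57 without control replicate 3. Klrb1c, the NK1.1 antigen of some mouse strains, rose by 2.08 ± 0.36 (adjusted p = 0.00245). It belongs to a family of close copies, 1 of its 6 counts was not whole, and exons of the predicted gene Gm44511 overlap 13.9% of its exonic bases, so its level is uncertain. Ncr1, encoding the NK receptor NKp46, had 21, 17 and 14 reads in Wnt1 libraries and 3, 2 and 0 in control libraries. Its log2 fold change was 2.91 ± 0.65 (edgeR adjusted p = 0.00735), and 3.67 without control replicate 1. Of 26 further NK and cytotoxic gene symbols 25 were found and 9 were tested. Of these 9, 8 rose and 0 fell (0 at an unadjusted p under 0.05 and 0 by DESeq2). Some of the 9 had few control reads, such as Klrg1 with 1, 2 and 3, and so passed the filter through their Wnt1 libraries. Untested genes of the list went either way. Klra7 had 16, 14 and 9 reads in Wnt1 libraries and 2, 3 and 0 in control libraries, and Gzmm 7, 3 and 13 in Wnt1 libraries and 16, 4 and 8 in control libraries. Among those that rose were the interleukin-18 receptor chain Il18rap (2.99 ± 0.24), Slamf7 (2.16 ± 0.26) and Cd244a (2.62 ± 0.37), the last 2 receptors of the SLAM family.

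Ligands of NK receptors were measured beside them. Of 12 ligand gene symbols 8 were found in the expression table and 5 were tested. Of these 5, 4 rose and 0 fell (0 at an unadjusted p under 0.05 and 0 by DESeq2). Raet1e, a stress-induced ligand of NKG2D, had 1.71, 1.74 and 2.28 CPM in Wnt1 libraries and 0.092, 0.222 and 0.228 CPM in control libraries, and rose by 3.36 ± 0.39 (edgeR adjusted p = 0.000398). Ulbp1, another NKG2D ligand, rose by 2.19 ± 0.39, and Cd1d1, which presents lipids to NKT cells, by 1.32 ± 0.22.

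Of the 7 B cell receptor, surface and transcription genes 3 were tested, and 2 rose. Cd22, an inhibitory lectin of the B cell surface, had 3.23, 4.21 and 5.12 CPM in Wnt1 libraries and 0.414, 0.487 and 0.411 CPM in control libraries. The groups were far apart, and Cd22 rose by 3.24 ± 0.30 (edgeR adjusted p = 0.000148), and it was called in all 16 alternatives. Exons of the antisense gene Gm29439 overlap 9.5% of its exonic bases. Cd79b, a signalling chain of the B cell receptor, had 2.76, 2.09 and 3.41 CPM in Wnt1 libraries and 1.33, 1.33 and 1.6 CPM in control libraries. It rose by 0.95 ± 0.27 (edgeR adjusted p = 0.0237), with adjusted p-values of 0.0678, 0.059 and 0.0631 without Wnt1 replicate 1, control replicate 1 and control replicate 2 (range 0.00261 to 0.0678), each at a log2 fold change of 0.95 or 0.96. Cd79a, the partner chain, had 0.476, 0.425 and 0.341 CPM in Wnt1 libraries and 0.23, 0.798 and 0.822 CPM in control libraries. Its groups overlapped, and it was not called at -0.57 ± 0.50 (edgeR adjusted p = 0.395).

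The other B cell genes of this group missed the filter on low counts. Ms4a1, encoding CD20, had 7, 7 and 3 reads in Wnt1 libraries and 1, 4 and 0 in control libraries. Pax5, the B cell identity factor, had 5, 2 and 6 reads in Wnt1 libraries and 0, 4 and 4 in control libraries. The kinase Blk had 7, 6 and 8 reads in Wnt1 libraries and 0, 2 and 2 in control libraries, and the coactivator Pou2af1 had 16, 9 and 3 reads in Wnt1 libraries and 2, 6 and 6 in control libraries. Without the filter edgeR called none of these 4 (adjusted p = 0.294 for Ms4a1, 0.785 for Pax5, 0.515 for Pou2af1 and 0.0945 for Blk). The groups did not overlap for Blk, which was called by limma on log2(FPKM + 0.1) (adjusted p = 0.0256) and on log2(FPKM + 1) without a filter (adjusted p = 0.0158). There were 117.2, 201.7 and 150 Cd22 reads per 100 Cd79b reads in Wnt1 libraries and 31, 36.7 and 25.7 in control libraries. Macrophage markers moved with Cd22, which mouse microglia are known to express too (15 of 16 called higher and 1 lower, summed levels of 1977 to 2385 CPM in Wnt1 libraries and 324.7 to 374.3 CPM in control libraries, 0 of the 16 at 0). Their part in the rise of Cd22 was not tested.

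The promoters of Cd22 and Cd79a are printed because these genes had the highest and the lowest log2 fold change among the 3 tested B cell surface genes (GRCm38.p6; chr7:30879029-30879278, minus strand, and chr7:24897247-24897496, plus strand; capitals as above).
Cd22: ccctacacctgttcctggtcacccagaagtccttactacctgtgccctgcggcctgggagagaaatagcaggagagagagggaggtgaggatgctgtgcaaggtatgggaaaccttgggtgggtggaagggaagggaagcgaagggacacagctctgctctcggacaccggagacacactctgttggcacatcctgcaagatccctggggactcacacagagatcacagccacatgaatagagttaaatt
Cd79a: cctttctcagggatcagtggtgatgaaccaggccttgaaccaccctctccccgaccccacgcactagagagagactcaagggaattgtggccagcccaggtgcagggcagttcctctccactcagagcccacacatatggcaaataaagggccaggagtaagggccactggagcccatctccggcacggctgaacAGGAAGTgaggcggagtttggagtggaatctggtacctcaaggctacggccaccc
The Cd79a window holds AGGAAGT from 55 bases before the start, and the Cd22 window none of the 4 motifs. These RefSeq starts differ from those of GENCODE. In GENCODE, Cd22 begins at 30880342 on the minus strand, so its whole window lies within the gene. Cd79a begins at 24897381, so the end of its window, with the AGGAAGT match, lies within the gene. Of 37 further B and plasma cell gene symbols 36 were found and 22 were tested. Of these 22, 15 rose and 0 fell (0 at an unadjusted p under 0.05 and 0 by DESeq2). They included Spib (3.01 ± 0.29), an ETS factor of B cells and plasmacytoid dendritic cells, Cd72 (2.01 ± 0.20), a B cell surface lectin, and Irf4 (2.80 ± 0.29), a factor of plasma cells and activated lymphocytes.

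Of the 3 immunoglobulin and plasma cell members 2 were tested, and both rose. Ighm, the constant region of IgM, had 23.1, 46.4 and 33 CPM in Wnt1 libraries and 7.49, 7.36 and 9.08 CPM in control libraries, and rose by 2.10 ± 0.26 on the log2 scale (edgeR adjusted p = 0.000562). Jchain, which joins IgM and IgA polymers, had 15.2, 2.62 and 2.01 CPM in Wnt1 libraries and 0.414, 0.487 and 0.502 CPM in control libraries. Wnt1 replicate 1 stood far above the other libraries of its group. The log2 fold change of Jchain was 3.81 ± 0.88 (edgeR adjusted p = 0.0105) and 2.29 without Wnt1 replicate 1. Leaving out control replicate 1 gave 3.82 (adjusted p = 0.0534), and leaving out control replicate 2 gave 3.93 (adjusted p = 0.0532; range over the alternatives 3.06e-07 to 0.138). Mzb1, a chaperone of antibody-secreting cells, missed the filter with 26, 17 and 9 reads in Wnt1 libraries and 0, 7 and 6 reads in control libraries. Annotated exons of Spata24 cover 57.2% of its exonic bases on the same strand, so its reads are uncertain. It was not called by edgeR without the filter (adjusted p = 0.153) and was called by limma on log2(FPKM + 1) (adjusted p = 0.0227).

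**Figure D3:**
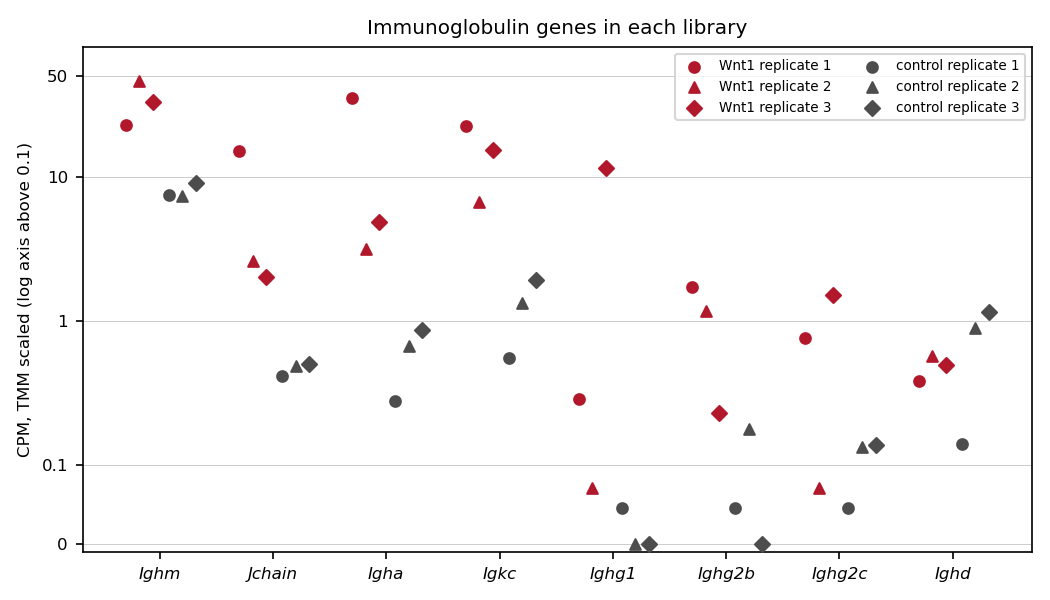
Levels of 8 antibody genes in each library (vertical axis, CPM with TMM scaling, logarithmic above 0.1 and linear below), with Wnt1 libraries in red, control libraries in grey and a symbol shape for each replicate number, which pairs nothing. Jchain and Igha are highest in Wnt1 replicate 1 and Ighg1 in Wnt1 replicate 3, while Ighm is higher in all 3 Wnt1 libraries than in any control library.

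The Ikaros factors, zinc finger regulators of lymphoid development, both rose. Ikzf1 had 13.3, 15.9 and 12.6 CPM in Wnt1 libraries and 2.9, 3.15 and 4.02 CPM in control libraries, and rose by 2.05 ± 0.20 (edgeR adjusted p = 0.000183). Ikzf3, encoding Aiolos, had 2.38, 1.81 and 3.23 CPM in Wnt1 libraries and 0.92, 0.753 and 1.05 CPM in control libraries, and rose by 1.44 ± 0.31 (edgeR adjusted p = 0.00747). Ikzf1 is also expressed by myeloid cells, whose markers are given above.

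Read ratios within each library set the T cell genes beside other leukocytes. Per 1000 reads of the 16 pan-leukocyte genes there were 11.7, 9.43 and 11.7 CD3 reads in Wnt1 libraries and 7.84, 11.1 and 11.3 in control libraries, so the groups overlapped. Macrophage-marker reads on the same scale were 3388 ± 56.9 in Wnt1 libraries and 1597 ± 36.2 in control libraries (SD, n = 3 each). Of the 16 reference genes, Cytip (-0.23 ± 0.17) and Ptpn6 (0.28 ± 0.14) were not called. Their reads were a larger part of the reference in control libraries, which lowers the control values of both ratios. The ratios were not computed without them. Per 1000 macrophage-marker reads there were 3.23 ± 0.425 CD3 reads in Wnt1 libraries and 6.32 ± 1.32 in control libraries (SD, n = 3 each), with no overlap. Within the CD3 frame, Cd4 gave 86.5, 84.9 and 79.5 reads per 100 CD3 reads in Wnt1 libraries and 75, 73.1 and 62.1 in control libraries. Whether all Cd4 reads came from T cells was not tested. Cd8a gave 52.3, 50.8 and 85.1 reads in Wnt1 libraries and 177.8, 76.9 and 74.1 in control libraries, and the groups overlapped. Lag3 gave 30.7 ± 7.48 reads in Wnt1 libraries and 16.6 ± 4.43 in control libraries without overlap, whereas Pdcd1, Icos and Cd28 overlapped (SD, n = 3 each). Zap70 gave 26.4 ± 0.644 reads in Wnt1 libraries and 40.1 ± 7.24 in control libraries, lower in every Wnt1 library (SD, n = 3 each). CD3 reads summed to 214, 185 and 215 in Wnt1 libraries and to 36, 52 and 58 in control libraries, so counting error in the control ratios is wide.

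**Figure D4:**
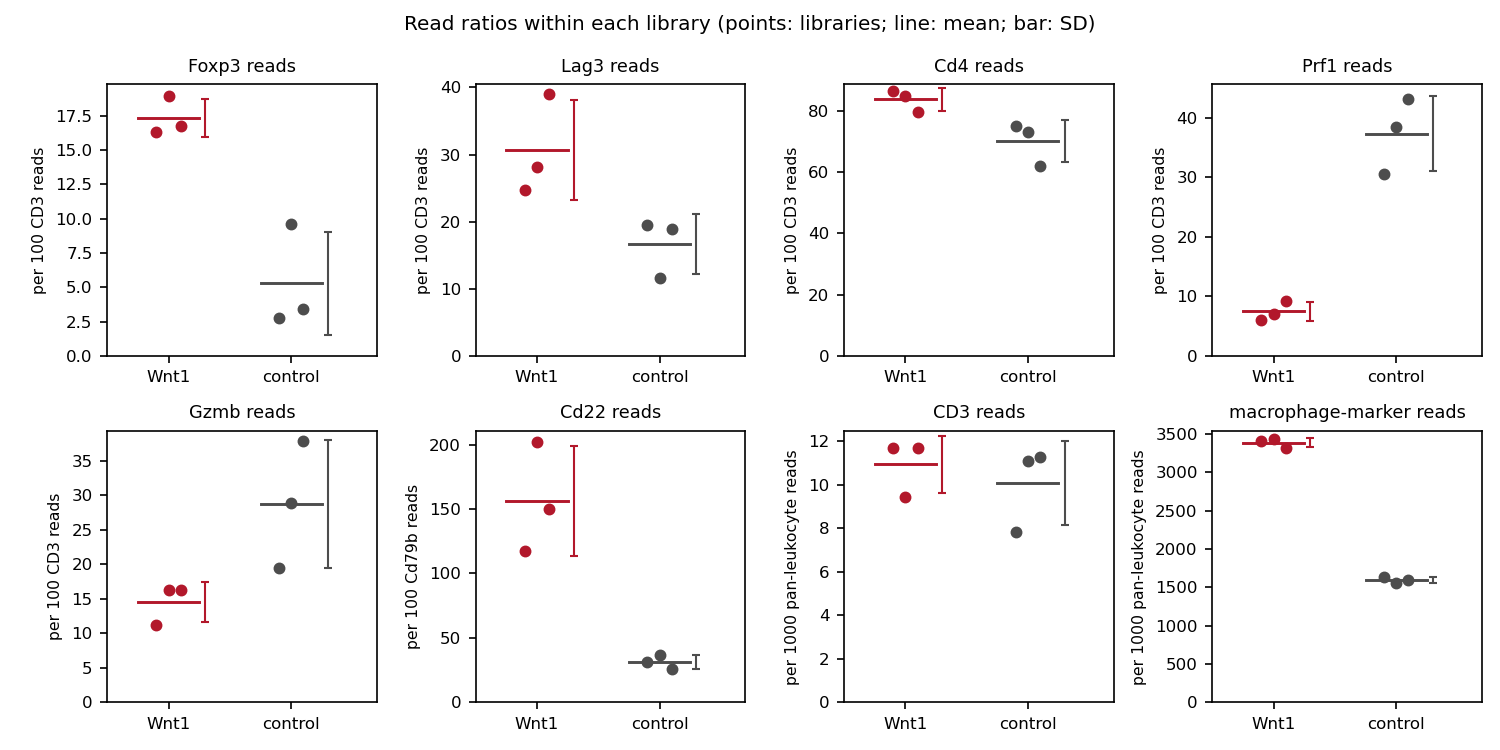
Read ratios within each library (vertical axes, reads of the titled gene or list per 100 or 1000 reads of the stated reference), with Wnt1 left of control, a point per library, a line at the mean and a bar for the SD. Foxp3, Lag3, Cd4, Cd22 and macrophage-marker ratios were higher and Prf1 and Gzmb ratios lower in every Wnt1 library than in every control library, while the CD3 ratio to pan-leukocyte reads overlapped.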

How the data were processed

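Per the labels' protocols, Trizol was used to extract kidney RNA, oligo(dT) beads to select polyadenylated RNA and the NEBNext Ultra kit to build libraries for an Illumina sequencer. The submitters' processing notes name RSEM, HISAT2, StringTie 1.3.1, Bowtie2 2.2.8 and fastp 0.18.0, and mm10 as build. They give each tool no role, no annotation release and no strand setting. For every gene and library the authors deposited an expected count (RSEM's estimate, which can be fractional) and an FPKM value, which corrects for transcript length and sequencing depth.

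Expected counts were rounded (9.02% were not whole within 1e-06). R 4.3.3 and edgeR 4.0.16 were used: filterByExpr (minimum count 10), TMM factors, then the robust quasi-likelihood F test of Wnt1 against control. Tests were two-sided, p-values were Benjamini-Hochberg adjusted over all tested genes, and genes were called at an adjusted p under 0.05. The fit was tested on simulated data. CPM values are TMM scaled. Coordinates come from GENCODE M21 (GRCm38) and promoters from RefSeq (GRCm38.p6). All 46 genes were taken by the fixed list. For each further list of lymphocyte genes and ligands the 3 called members with the smallest p are named, except 1 that is not reported here. Prkcq, Cd274 and the genes of the closing section were named after their values were seen, and marker lists of other cell types are given as counts and sums. The members and lists were chosen with earlier results of these data known. The alternatives were DESeq2 1.42.0, 3 other scalings, 2 other filters, limma 3.58.1 on log2(FPKM + 1) and log2(FPKM + 0.1), and leaving out libraries. The protocols name no molecular identifiers, so floors cover counting error only.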

Additional observations from a re-analysis of the deposited data

How the results depend on the processing

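Over the 16 alternatives between 25 and 38 members were called higher and 0 lower. The 38 came from the log2(FPKM + 1) and log2(FPKM + 0.1) fits, where 40.4% and 40.9% of all tested genes were called higher, and library totals gave 35 members beside 44.0% of all tested genes, against 22.4% with TMM. The same 32 members were called with median-ratio factors, upper-quartile factors, library totals and DESeq2, and 23 of the 32 kept their call in every alternative that tested them. Leaving out 1 library at a time gave 25 to 31 members called higher, 0 lower and 4518 to 8142 called among all tested genes, against 5936 with all libraries. Without both libraries numbered 3, 9096 genes were called (4664 higher and 4432 lower), a number more than 1.5 times that with all libraries, and 29 members, without Cd8a, Nkg7 and Tbx21. The cause was not tested. Library totals split the calls into 6348 higher and 1288 lower, against 3239 and 2697 with TMM, and added the members Cd247, Eomes and Gzmk. Of the single-gene values, 565 kept their direction and their side of the threshold, 32 fell short of it, 12 passed it newly and 5 changed sign. All 5 were Gata3, whose log2 fold change was -0.0058 with median-ratio factors, -0.0090 with DESeq2, -0.18 without both libraries numbered 3 and between -0.069 and 0.24 when 1 library was left out (below 0 without Wnt1 replicate 3 and without control replicate 3), none called. On the log2(FPKM + 1) scale the median of the tested members was 0.71, since a pseudocount of 1 understates low genes. No paired analysis was possible because the replicate numbers follow the order of the records and pair nothing. Ms4a1, Pax5, Blk, Tigit, Ctla4 and Pou2af1 had at most 16 reads in any library.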

Other observations

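Constant regions of antibody classes and of T cell receptors were looked at after their values were seen. Igha, the constant region of IgA, had 35.3, 3.15 and 4.86 CPM in Wnt1 replicates 1, 2 and 3 and 0.276, 0.665 and 0.867 CPM in control replicates 1, 2 and 3, highest in the library where Jchain was highest. Its log2 fold change was 4.57 ± 1.06 (edgeR adjusted p = 0.0108). Ighg1 had 9, 2 and 303 reads in Wnt1 libraries and 1, 0 and 0 reads in control libraries, so nearly all of its reads came from Wnt1 replicate 3. Ighg2b had 54, 33 and 6 reads in Wnt1 libraries and 1, 4 and 0 reads in control libraries. Igkc, the kappa light chain, had 22.7, 6.73 and 15.5 CPM in Wnt1 libraries and 0.552, 1.33 and 1.92 CPM in control libraries, and rose by 3.56 ± 0.56 (edgeR adjusted p = 0.0019). Ighd, of naive B cells, overlapped between groups at 0.38, 0.567 and 0.493 CPM in Wnt1 libraries and 0.138, 0.886 and 1.14 CPM in control libraries, and was not called (-0.59 ± 0.62; edgeR adjusted p = 0.481).

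Among T cell receptor constant regions, Trbc1 rose by 2.15 ± 0.42 and Trbc2 by 1.98 ± 0.33 on the log2 scale (edgeR adjusted p = 0.00455 and 0.00228), and Trac by 0.77 ± 0.25 (adjusted p = 0.0415). Trdc, of gamma-delta T cells, had 14, 12 and 18 reads in Wnt1 libraries and 3, 1 and 3 reads in control libraries, and rose by 2.23 ± 0.53 (edgeR adjusted p = 0.0104). Trbc1 and Trbc2 are close copies, and the labels do not state how shared reads were divided.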
